A study of Mus musculus with 6 samples.

Results

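The 10 genes described here encode the invariant chains of the T cell receptor complex (Cd3d, Cd3e, Cd3g and Cd247), the coreceptors Cd4 and Cd8a, the signalling proteins Lck and Themis, and the costimulatory receptors Cd28 and Icos. They were chosen by name, each represented by its mRNA transcript of the highest mean value, and all 10 were found among the 21774 genes of the mRNA table. All 10 also passed the filter on low values, as did 15759 genes in all. They were measured in RNA from lung cells of mice that had been collected with B220 microbeads as B cells, so a T cell transcript here came from a B cell library and not from sorted T cells.

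Both groups were wild-type mice and held 3 libraries each. The severe asthma group was given 10 μg of lipopolysaccharide (LPS, a bacterial cell wall component) with 25 μg of house dust mite allergen (HDM) in 35 μl of PBS into the trachea daily on days 0 to 2. HDM without LPS followed on the 8 days from day 7 to day 14, and the control group had PBS alone. The series set out to compare gene expression in pulmonary B cells of the 2 groups in relation to lymphoid tissue induced in the bronchi. B220 is also carried by plasmacytoid dendritic cells, and the labels give no second marker, no age, and do not say whether a library came from 1 mouse or several.

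On T cells the αβ receptor binds antigen but cannot signal by itself. It is carried by the CD3 γ, δ and ε chains and the ζ chain (Cd247), whose cytoplasmic tails are phosphorylated by the kinase Lck, itself brought to the receptor by CD4 or CD8. CD28 supplies the costimulatory signal for a first response and ICOS, its relative, supports the T cells that help B cells in follicles.

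The libraries held between 16498219 and 18054903 mRNA reads, counted on 1 transcript per gene, and reads were seen for 15614 to 16193 genes. Values below are adjusted reads, the authors' counts after their adjustment to a common library size, and differences are log2 fold changes of the adjusted reads plus 1, severe asthma minus control. B cell transcripts were high in both groups: per length, Cd79a, a chain of the B cell receptor, stood at 999 RPKM (reads per kilobase of transcript, scaled by the library's total) in control and 1190 RPKM in severe asthma. The macrophage transcript Lyz2, lysozyme, named here after its values were seen, was high too. It read 15671, 5659 and 14285 adjusted reads in control and 49853, 92260 and 61799 in severe asthma. Cd68, another macrophage marker, was lower, at 267, 223 and 598 in control and 1776, 3038 and 2082 in severe asthma. Lck, the highest of the 10 genes, stood at 13.6 and 20.8 RPKM, and Themis, the lowest, at 0.430 and 0.101 RPKM. In sorted cells of this kind, fewer T cells in the preparation and less RNA per cell cannot be told apart.

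Of the 10 genes, Lck alone rose in severe asthma, to 1.69 times its control mean, and Themis fell to 26.0% of its control mean. Cd247 also fell, but on a transcript that shares exon bases with another gene. None of the other 7 genes passed the adjusted threshold of 0.05 in limma's test over all 15759 genes. The count of 1 gene risen stands beside a background of 20.7% of all genes risen, and the count of 2 fallen beside 14.4% fallen. The groups did not overlap for 5 genes that were lower in severe asthma and for 1 that was higher, against 21.6% and 31.6% of all genes tested. The median log2 fold change of the 10 genes was -0.39, while the median of all genes was 0.06. Scaling by total reads alone put these medians at -0.54 and -0.08, and turned the split of all genes from 3262 risen and 2263 fallen to 1923 risen and 3112 fallen. Scaling to the B cell list gave medians of -0.59 and -0.14 with 943 genes risen and 1721 fallen.

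**Figure D1:**
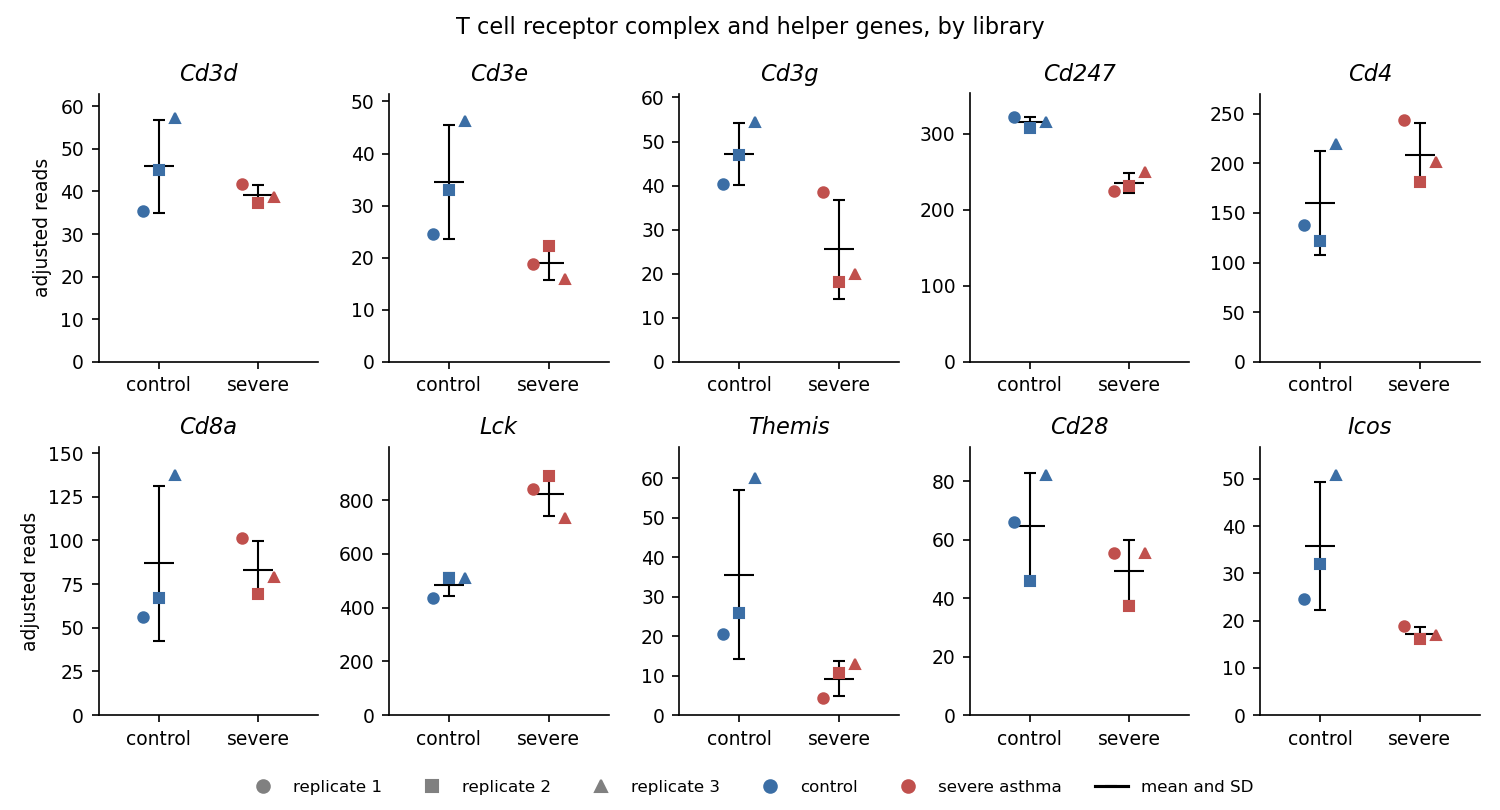
Adjusted reads (vertical axis, from 0) of each of the 10 genes in the 3 control and 3 severe asthma libraries; points are libraries, the bar and whiskers are the mean and SD. Lck sits higher in all 3 severe asthma libraries, and Cd3e, Cd3g, Cd247, Themis and Icos sit lower in all 3; control replicate 3 is the highest control for 9 of the 10 genes.

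Because Lck and Themis carry the called changes, their promoter windows are printed here, from 250 bases before to 50 bases after the annotated start, 5′ to 3′ on the gene's own strand, from RefSeq on GRCm38.p6. Lck lies on the minus strand at chr4:129548344-129573641 (mm10) and has a distal and a proximal promoter, windows chr4:129573592-129573891 and chr4:129558323-129558622. Themis lies on the plus strand at chr10:28668360-28883818. It has overlapping windows at chr10:28668110-28668409, printed here, and at chr10:28668145-28668444. Capitals mark matches on either strand to 3 fixed strings: AGGAAG, a form of the ETS factor site, TGTGGT, a form of the RUNX factor site, and CAGGTG, an E-box. Other forms of these sites were not searched for.
Lck distal promoter: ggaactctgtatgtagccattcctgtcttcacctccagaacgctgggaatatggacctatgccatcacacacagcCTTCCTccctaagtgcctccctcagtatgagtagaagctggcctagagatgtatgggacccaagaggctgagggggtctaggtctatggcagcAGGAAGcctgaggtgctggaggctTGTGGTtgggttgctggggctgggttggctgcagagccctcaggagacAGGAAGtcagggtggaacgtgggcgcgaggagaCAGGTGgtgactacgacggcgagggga
Lck proximal promoter: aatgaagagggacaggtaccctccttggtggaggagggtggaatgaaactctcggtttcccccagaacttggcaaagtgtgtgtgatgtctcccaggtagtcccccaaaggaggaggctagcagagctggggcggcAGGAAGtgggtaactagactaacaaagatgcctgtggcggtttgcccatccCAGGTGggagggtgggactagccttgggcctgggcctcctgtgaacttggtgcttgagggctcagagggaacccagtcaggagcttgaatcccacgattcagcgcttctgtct
Themis promoter: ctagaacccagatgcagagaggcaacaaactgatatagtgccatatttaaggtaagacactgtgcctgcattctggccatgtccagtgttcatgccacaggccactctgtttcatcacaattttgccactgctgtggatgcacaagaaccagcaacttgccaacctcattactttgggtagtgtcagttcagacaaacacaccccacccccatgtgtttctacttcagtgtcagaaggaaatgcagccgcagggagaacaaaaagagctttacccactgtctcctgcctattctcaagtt
The distal Lck window held 3 matches to the ETS string, 1 to the RUNX string and 1 to the E-box, and the proximal window held 1, 0 and 1. The Themis windows each held 0 matches to these exact strings, which does not mean that they lack other forms of the sites. Among 32851 promoter windows of the same length, 35.4% held the ETS string, 16.8% the RUNX string and 20.2% the E-box. A match describes letters only. The table gave 9 windows for 7 of the 10 genes.

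The receptor's own chains come first. Cd3g (chr9:44969572-44980431), Cd3d (chr9:44981786-44987339) and Cd3e (chr9:44998740-45009627) are neighbours on chromosome 9, and the γ and δ chains each pair with an ε chain in the complex. Cd3e read 24.5, 33.0 and 46.2 adjusted reads in the control libraries and 18.8, 22.3 and 15.9 in severe asthma. Every severe asthma library lay below every control library. The means were 34.6 ± 10.9 (SD, n = 3) and 19.0 ± 3.24 (SD, n = 3), a log2 fold change of -0.80 (SE 0.35, 95% interval -1.62 to 0.02) with an adjusted p of 0.114 in limma.

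Cd3g, the γ chain, read 40.3, 47.0 and 54.4 in control and 38.5, 18.2 and 19.8 in severe asthma. The groups did not overlap, although severe asthma replicate 1 lay just under the lowest control library. Its log2 fold change was -0.93 (SE 0.36, 95% interval -1.77 to -0.09), with an adjusted p of 0.08 in limma. Cd3d, the δ chain, read 35.4, 45.0 and 57.2 in control and 41.8, 37.3 and 38.7 in severe asthma. These groups overlapped, and the log2 fold change was -0.19 (SE 0.28, 95% interval -0.85 to 0.46), adjusted p = 0.629 in limma. Leaving out control replicate 1 brought Cd3e past the threshold (-1.01, adjusted p = 0.047 in limma), and leaving out severe asthma replicate 1 did so for Cd3g (-1.26, adjusted p = 0.0372 in limma).

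Counted together, the 3 CD3 genes gave 102, 125 and 171 whole reads in the control libraries and 95, 73 and 75 in severe asthma. All 3 severe asthma libraries were under the lowest control library, replicate 1 by little.

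Cd247 (chr1:165788681-165877277) encodes the ζ chain, which carries most of the phosphorylation sites of the complex and serves Fc and natural cytotoxicity receptors of NK cells as well. Its transcript of the highest mean, NM_001113392.2, read 321, 308 and 316 in control and 225, 231 and 250 in severe asthma. The groups were apart and tight, with means of 315 ± 6.73 and 235 ± 13.2 (SD, n = 3 each). The log2 fold change was -0.42 (SE 0.10, 95% interval -0.66 to -0.18), and the adjusted p was 0.0183 in limma. It lost the call without control replicate 3 (adjusted p = 0.0574), without severe asthma replicate 1 (0.0612), 2 (0.0691) or 3 (0.0519).

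That transcript shares 2136 exon bases with Pou2f1, which lies on the opposite strand and encodes the octamer factor OCT1. Whether counting used strand is not given in the sources used here, so reads of the 2 genes cannot be told apart there. Pou2f1 itself read 2005 ± 59.6 in control and 1655 ± 83.9 in severe asthma (SD, n = 3 each), a log2 fold change of -0.28 (SE 0.07) with an adjusted p of 0.0177 in limma. The Cd247 transcript NM_001113391.2, chosen after the values were seen because it shares 0 bases with Pou2f1, was counted at 78.7, 64.0 and 70.8 in control and 45.9, 52.1 and 29.7 in severe asthma. All 3 severe asthma values lay below the controls, and their mean was 59.9% of the control mean. On this transcript the log2 fold change was -0.76 (SE 0.29, 95% interval -1.42 to -0.10), with an adjusted p of 0.0729 in limma, so Cd247 was not called where Pou2f1 reads are kept out. In the authors' deposited table NM_001113392.2 stood at -0.42 with a q-value of 0.272, and NM_001113391.2 at -0.74 with a q-value of 0.199.

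**Figure D2:**
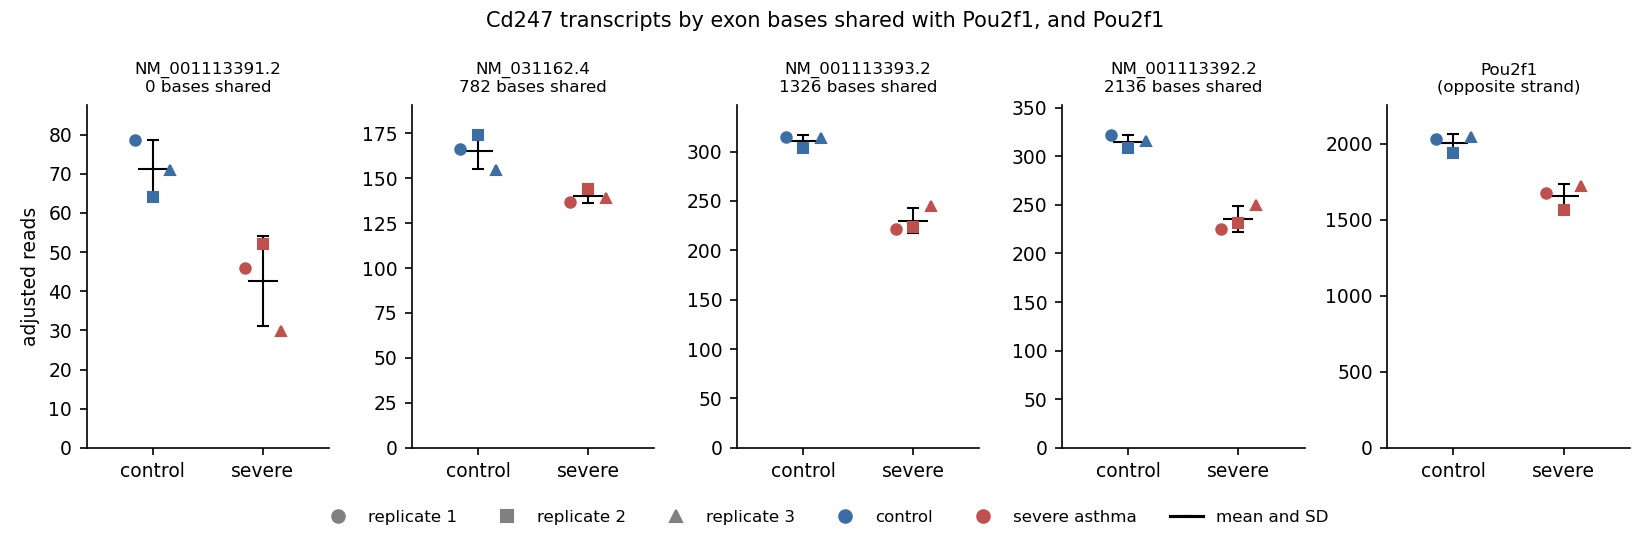
Adjusted reads (vertical axes, each from 0) of 4 Cd247 transcripts in order of the exon bases they share with Pou2f1, and of Pou2f1, in the 3 control and 3 severe asthma libraries, with mean and SD. The transcript with 0 shared bases holds 71.2 ± 7.33 adjusted reads in control, against 315 ± 6.73 for the one with 2136, and all 5 panels are lower in severe asthma.

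Neither coreceptor passed the test. Cd4 (chr6:124864692-124888221), the coreceptor of helper T cells, which mouse plasmacytoid dendritic cells also carry, read 138, 122 and 219 in control and 243, 181 and 201 in severe asthma. Control replicate 3 lay among the severe asthma libraries, so the groups overlapped. The log2 fold change was 0.42 (SE 0.24, 95% interval -0.13 to 0.97), adjusted p = 0.2 in limma. Without control replicate 3 it was 0.67, with an adjusted p of 0.0445 in limma.

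Cd8a (chr6:71373427-71379173), the coreceptor chain of cytotoxic T cells, read 56.0, 67.0 and 138 in control and 101, 69.4 and 79.4 in severe asthma. The highest value and the lowest were both control libraries. Its log2 fold change was 0.04 (SE 0.35, 95% interval -0.78 to 0.85), adjusted p = 0.949 in limma, and its sign turned under 10 of the 21 alternatives, TMM and DESeq2 scaling included.

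Lck, the kinase that starts receptor signalling and that NK cells and B-1 B cells also transcribe, read 436, 510 and 512 in control and 840, 891 and 735 in severe asthma. The lowest severe asthma library was well above the highest control library. The means were 486 ± 43.5 and 822 ± 79.5 (SD, n = 3 each), and the log2 fold change was 0.76 (SE 0.11, 95% interval 0.51 to 1.00) with an adjusted p of 0.00257 in limma. Lck kept its direction and its call under all 21 alternatives, with log2 fold changes between 0.55 and 0.84 and adjusted p-values between 2.26e-06 and 0.0305. Its 6 transcripts had nearly the same means, from 621 to 654 adjusted reads. Among the 3 with an annotated start, 1 starts at the distal and 2 at the proximal promoter printed above, so their counts do not separate the promoters. In the authors' deposited table the log2 fold change of NM_010693.3 was 0.76, at a q-value of 0.000359.

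Themis, an adaptor needed for positive selection of thymocytes, read 20.6, 26.0 and 60.2 in control and 4.25, 10.6 and 12.9 in severe asthma. All 3 severe asthma libraries were lower than any control, and control replicate 3 was more than the other controls together. The means were 35.6 ± 21.5 and 9.26 ± 4.49 (SD, n = 3 each), from 4, 10 and 13 whole reads in severe asthma. The log2 fold change was -1.80 (SE 0.55, 95% interval -3.07 to -0.53), adjusted p = 0.0373 in limma. The direction held under all 21 alternatives but the call did not in 7 of them. Without control replicate 3 it was -1.35 (adjusted p = 0.117), and the adjusted p was 0.0537 without control replicate 2 and 0.101, 0.0889 and 0.0666 without severe asthma replicates 1, 2 and 3. Themis was the only 1 of the 10 genes in the authors' deposited table of 2977 called genes, where its log2 fold change was -1.97 and its q-value 0.00522. Lck was absent from it although its transcript NM_010693.3 had a q-value of 0.000359, so absence does not mean a high q-value.

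Of the costimulatory receptors, Icos (chr1:60977927-61000320) read 24.5, 32.0 and 50.8 in control and 18.8, 16.0 and 16.9 in severe asthma. The groups did not overlap and the severe asthma libraries lay close together. The means were 35.8 ± 13.5 and 17.2 ± 1.42 (SD, n = 3 each), a log2 fold change of -0.95 (SE 0.36, 95% interval -1.79 to -0.12) with an adjusted p of 0.0743 in limma. Without control replicate 1 it was -1.19, with an adjusted p of 0.0281 in limma. Cd28 (chr1:60716800-60773359) read 65.9, 46.0 and 82.1 in control and 55.3, 37.4 and 55.6 in severe asthma. Its groups overlapped, with a log2 fold change of -0.36 (SE 0.31, 95% interval -1.08 to 0.35), adjusted p = 0.391 in limma.

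**Figure D3:**
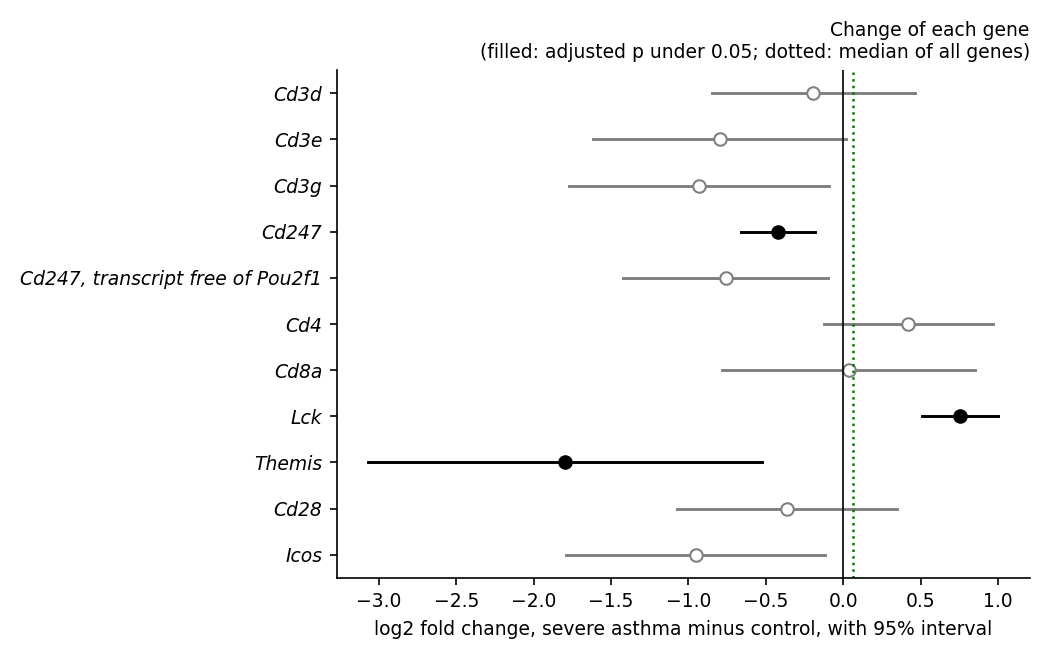
Log2 fold change of each gene (horizontal axis, severe asthma minus control) with its 95% interval; filled black points passed an adjusted p of 0.05 in limma, open grey points did not, and the dotted line is the median of all genes at 0.06. Lck lies at 0.76 and Themis at -1.80, and Cd247 is shown on its 2 transcripts at -0.42 and -0.76.

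An exact two-sided permutation test of each gene by itself could not go below p = 0.1 with 3 libraries against 3. That value was reached by Cd3e, Cd3g, Cd247, Lck, Themis and Icos.

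The balance of Lck to the CD3 genes was also set side by side within each library. Divided by the summed adjusted reads of Cd3d, Cd3e and Cd3g, Lck stood at 4.35, 4.08 and 3.24 in control and at 8.48, 11.4 and 9.88 in severe asthma. The highest control ratio was far below the lowest in severe asthma, and the means were 3.89 ± 0.576 and 9.93 ± 1.48 (SD, n = 3 each). The same ratio for Cd4 was 1.25 ± 0.234 in control and 2.50 ± 0.193 in severe asthma (SD, n = 3 each). For Cd8a it was 0.656 ± 0.188 and 0.993 ± 0.0915 (SD, n = 3 each), and these groups did not overlap either. Themis and Icos went the other way, from 0.265 ± 0.101 to 0.118 ± 0.0673 and from 0.274 ± 0.0418 to 0.207 ± 0.0186 (SD, n = 3 each). The Cd28 ratio overlapped between groups. The ratios were formed after the values were seen and carry no test.

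**Figure D4:**
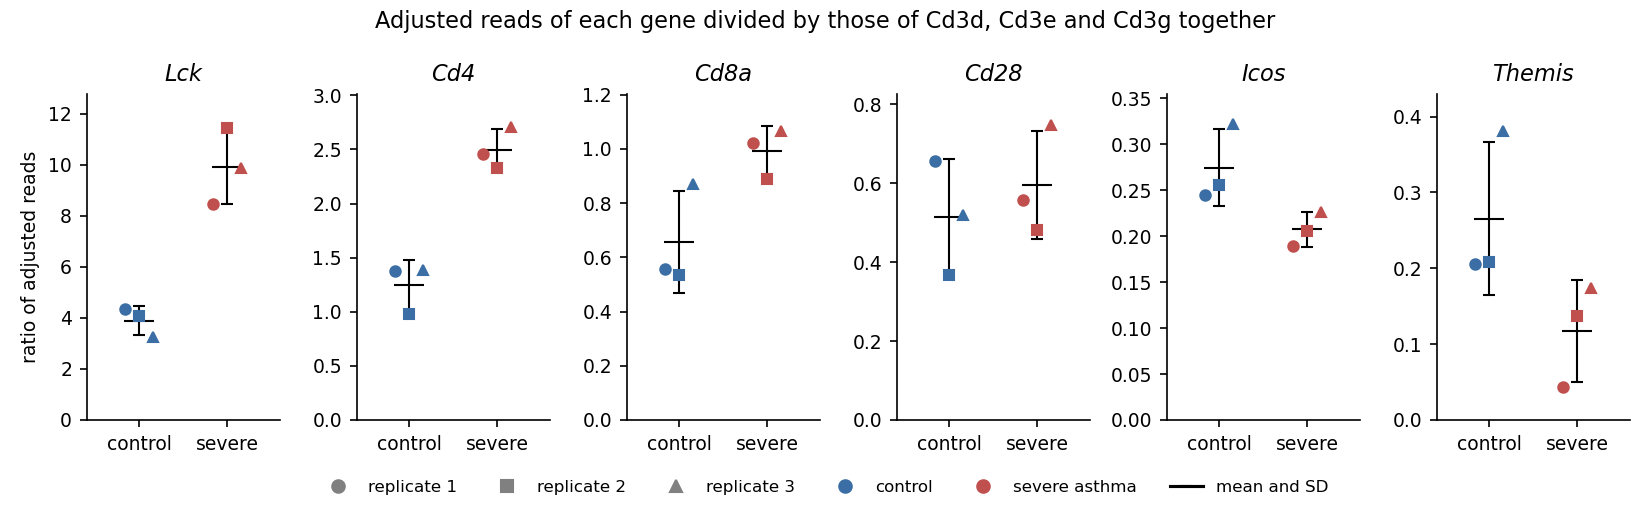
Adjusted reads of 6 genes divided by the summed adjusted reads of Cd3d, Cd3e and Cd3g (vertical axes, each from 0) in the 3 control and 3 severe asthma libraries, with mean and SD. The Lck ratio lies between 3.24 and 4.35 in control and between 8.48 and 11.4 in severe asthma, and the Cd28 ratios overlap.

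Per length, Lck stood apart from the other 9 genes in both groups, at 12.3 to 14.5 RPKM over the control libraries and 18.8 to 22.1 RPKM over severe asthma. Cd4 was next at a mean of 3.14 RPKM in control and did not differ beyond the spread of libraries from Cd3g at 2.83 RPKM, nor Cd3g from Cd247 (the transcript free of Pou2f1) at 2.67 RPKM. Cd3d followed at 1.74, Cd8a at 1.70, Cd3e at 1.45, Cd28 at 0.912, Icos at 0.670 and Themis at 0.430 RPKM, and each of these overlapped the next in the control libraries. In severe asthma Cd4 (3.71 RPKM) stood clear of Cd8a (1.48 RPKM), which overlapped Cd247 (1.44 RPKM), Cd3g (1.38 RPKM) and Cd3d (1.34 RPKM). Below them, Cd3e (0.718 RPKM) overlapped Cd28 (0.631 RPKM), while Icos (0.294 RPKM) and Themis (0.101 RPKM) each stood apart. RPKM of Cd4 and Icos used NM_013488.3 and NM_017480.2, because their transcripts of the highest mean had no annotated length.

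Control replicate 3 was the highest control library for 9 of the 10 genes, Cd247 being the exception, and for Lck it was level with control replicate 2. With each gene centred on its own mean, the mean log2 value over the genes was 0.63 in that library, -0.07 and 0.07 in the other control libraries, and -0.14, -0.28 and -0.21 in severe asthma. The genes whose profile over the 6 libraries was most like this mean were 4930522L14Rik (Pearson r = 0.991), Cwc25 (0.985), Dmxl1 (0.978), Slc18a2 (0.975), Zfp266 (0.974), Zyg11b (0.970), Larp4b (0.965) and Cacna1e (0.965), out of 12580 candidates. With 6 libraries these r are a description of shared ups and downs.

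Other genes of the pathway were read against the same background of 20.7% of all genes risen and 14.4% fallen. Of 20 genes that act just downstream of the receptor, 3 rose, 2 fell and 15 did not pass, with a median log2 fold change of -0.08. Both shares are under the background, so the counts show nothing particular to the list. Lcp2, which encodes the adaptor SLP-76 and is also used by myeloid cells, read 124, 104 and 223 in control and 427, 525 and 542 in severe asthma. Every severe asthma value was above every control, and the log2 fold change of 1.79 (SE 0.28, adjusted p = 0.00525 in limma) passed under all 21 alternatives. Fyn, the Src family kinase closest in role to Lck, rose by 0.40 (adjusted p = 0.00505 in limma), but not when scaled to the B cell list (0.19, adjusted p = 0.374). Ptpn22, a phosphatase that acts on Lck, fell by 0.40 (adjusted p = 0.00942 in limma) and kept its call throughout. Prkcq, the kinase PKCθ, fell by 1.02 (adjusted p = 0.0291 in limma). The Prkcq call was lost without control replicate 3 (adjusted p = 0.0569) and without severe asthma replicate 1, 2 or 3 (0.0743, 0.0658 and 0.106), and when scaled to the B cell list (-1.22, adjusted p = 0.0677).

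Among 14 T cell surface genes, 4 rose and 2 fell, with a median of -0.09, shares near the background of 20.7% and 14.4%. Il7r, the interleukin-7 receptor chain, read 188, 214 and 212 in control and 295, 457 and 439 in severe asthma, a rise of 0.93 (adjusted p = 0.00798 in limma) that passed under all 21 alternatives. Cd7 rose by 0.98 (adjusted p = 0.00925 in limma), but not when scaled to the B cell list (0.78, adjusted p = 0.0746). Cd6 fell by 1.18 (adjusted p = 0.024 in limma) and Cd27 by 0.64 (adjusted p = 0.0228 in limma). These 2 were named after their values were seen and were not followed through the alternatives. Of 10 CD28 family and checkpoint receptors, 2 rose and 1 fell. Btla was the 1 that fell, by 0.32 (adjusted p = 0.0342 in limma), and it lost that call in 5 of the 21 alternatives. Lag3, which binds MHC class II, rose by 0.92 (adjusted p = 0.0133 in limma), and Havcr2, the receptor TIM-3 that myeloid cells also carry, rose by 1.92 (adjusted p = 0.0217 in limma). Lag3 lost its call without severe asthma replicate 2 (adjusted p = 0.0547), and Havcr2 without control replicate 1 (0.0917) and severe asthma replicates 2 and 3 (0.0864 and 0.069). Scaled to the B cell list, neither passed (Lag3 0.72, adjusted p = 0.124, and Havcr2 1.72, adjusted p = 0.0592).

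A list of 8 genes, costimulatory ligands and Cd40, gave 3 risen and 1 fallen in limma, and 1 and 1 in edgeR. Which cells in the libraries carried these transcripts was not tested. Tnfsf4 rose by 2.18 (adjusted p = 0.02 in limma, 0.0386 in edgeR) and lost its call in 2 of its 19 alternatives. It had 0, 0 and 1 whole reads in control and 5, 6 and 3 in severe asthma. Cd274 fell by 0.40 (adjusted p = 0.0449 in limma), with groups that overlapped, and lost its call in 6 of the 21 alternatives. Icosl, the ligand of ICOS, rose by 0.26 (adjusted p = 0.0278 in limma), but by 0.12 when scaled by total reads (adjusted p = 0.205). Cd40, which receives the CD40 ligand of helper T cells, rose by 0.40 (adjusted p = 0.0468 in limma) and lost that call in 12 of the 21 alternatives. Without each library in turn, the adjusted p of Icosl reached 0.106 and that of Cd40 0.161, both without severe asthma replicate 2.

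Of 15 T cell transcription factors, 3 rose and 4 fell, with a median of -0.39, beside 20.7% risen and 14.4% fallen of all genes. With limma-voom 2 rose and 3 fell, and with DESeq2 3 rose and 6 fell. Tox, a factor of T cell development and exhaustion, read 34.4, 13.0 and 32.3 in control and 160, 131 and 138 in severe asthma, a rise of 2.49 (SE 0.38, adjusted p = 0.00359 in limma). Runx3, a factor of the CD8 lineage that also acts in other lymphocytes, rose by 0.45 (adjusted p = 0.00584 in limma), though not when scaled to the B cell list (0.24, adjusted p = 0.262). Satb1, a chromatin organiser, fell by 0.58 (adjusted p = 0.00673 in limma). Gata3, the factor of type 2 helper T cells and of group 2 innate lymphoid cells, read 96.4, 38.0 and 58.8 in control and 22.9, 13.9 and 10.9 in severe asthma. All severe asthma values of Gata3 were lower, and it fell by 1.92 (adjusted p = 0.0143 in limma), but not without severe asthma replicate 2 (-1.86, adjusted p = 0.062) or 3 (-1.69, adjusted p = 0.0619).

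Helper cytokines were mostly low. Of 13 cytokine genes with Cd40lg, 5 passed the filter on low values and 0 of them passed limma's test or reached an unadjusted p under 0.05 in it. edgeR and DESeq2 also called 0 of the 5. Ifng, interferon γ, the highest in mean, read 29.5, 21 and 19.2 in control and 32.3, 28.7 and 7.91 in severe asthma. The groups overlapped, at -0.21 (adjusted p = 0.795 in limma), or 0.40 without severe asthma replicate 3. Il10, interleukin-10, read 2.94, 7.00 and 4.59 in control and 35.3, 15 and 4.94 in severe asthma. Severe asthma replicate 3 lay among the controls, and the log2 fold change of 1.43 did not pass (adjusted p = 0.139 in limma). Of 5 genes of naive lymphocyte homing, 2 fell: Ccr7, the receptor that guides lymphocytes into lymph nodes, by 0.80 (adjusted p = 0.000936 in limma), and Klf3, a transcriptional repressor, by 0.66 (adjusted p = 0.00107 in limma). The constant segments of the receptor's own α and β chains were not analysed here.

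Markers of other lymphocytes and of myeloid cells differed between the groups in the same libraries. Of 4 markers of γδ and MAIT cells, which also carry CD3, 3 fell, with a summed level of 411 to 1099 adjusted reads in control and 41.9 to 101 in severe asthma. Zbtb16, which encodes PLZF, a factor of innate-like T cells, read 280, 119 and 228 in control and 13.6, 9.65 and 13.9 in severe asthma. Those groups were far apart, with a log2 fold change of -3.90 (SE 0.37, adjusted p = 0.000652 in limma). Of 13 cytotoxic and NK cell markers, 2 rose (0 with limma-voom) and the other 11 did not pass, and their sum ran from 1674 to 1838 in control and from 1795 to 3034 in severe asthma. Of 6 markers of group 2 innate lymphoid cells, 2 fell and 4 did not pass, and their sum was 777 to 2310 in control and 252 to 497 in severe asthma. Kit, a receptor that mast cells and progenitors also carry, made up most of the control sums, at 2125, 630 and 764 adjusted reads against 270, 67.4 and 77.4 in severe asthma, and the median log2 fold change of the list was 0.13. No marker of these lists was at 0 in all 6 libraries, and their part in the values of the 10 genes was not tested.

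Of 12 macrophage and monocyte markers, 8 rose and 4 did not pass. Their summed level ran from 7101 to 17924 adjusted reads in control and from 58875 to 104210 in severe asthma, with no overlap. Lyz2 made up most of the sum in every library. Itgam, the integrin CD11b, rose by 2.67 (adjusted p = 0.000223 in limma). Of 7 markers of plasmacytoid dendritic cells, 4 rose and 1 fell, with sums of 4886 to 5134 in control and 5299 to 6004 in severe asthma. Tcf4, named here after its values were seen, was the 1 that fell (-0.31, adjusted p = 0.0117 in limma). It made up most of the control sums, at 3182, 2958 and 2929 adjusted reads against 2538, 2381 and 2384 in severe asthma. Siglech rose by 0.88 (adjusted p = 0.00203 in limma). Of 8 conventional dendritic cell markers, 3 rose and 2 fell. Of 11 B cell markers, 2 rose in limma and 0 in edgeR, with sums of 151560 to 213460 in control, the lowest in replicate 1, and 209911 to 229705 in severe asthma. What these cells contribute to Lck, Cd4 or Lcp2 reads was not tested.

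**Figure D5:**
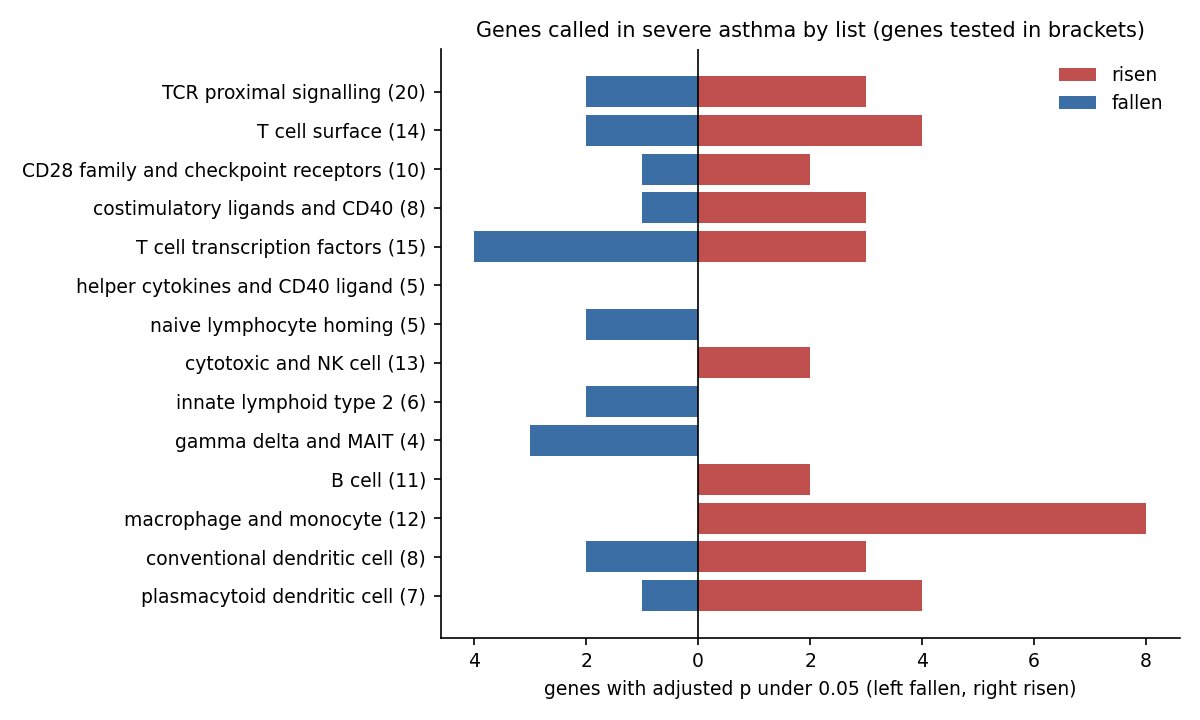
Number of genes in each list that rose (red, right) or fell (blue, left) in severe asthma at an adjusted p under 0.05 in limma, with the number tested in brackets. The macrophage and monocyte list has 8 of 12 risen, the γδ and MAIT list 3 of 4 fallen, and the lists of T cell signalling and surface genes have bars on both sides.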

How the data were processed

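RNA of B cells from 6 mouse lung preparations was measured as 1 library each. Per the labels' protocols, polyadenylated RNA was enriched, fragmented and built into libraries with a NEBNext Ultra kit. The submitters' processing notes name HISAT2 2.1.0 and HTSeq 0.11.2 and the build mm10, with no role, and strand use in counting is not given in the sources used here. The deposited values are a signal per transcript and library that the authors adjusted to a common library size. All 440735 values above 0 could be rebuilt within 1e-06 from whole reads by edgeR's quantile adjustment with a dispersion of 0.0474. Those whole reads were used in count-based alternatives, while RPKM was computed from the adjusted reads and their library totals. The authors also deposited their own p-value, q-value and log2 fold change per transcript, from a test that is not given in the sources used here.

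For each gene the transcript of the highest mean was kept. The main test was limma-trend (limma 3.58.1 in R 4.3.3) run two-sided in its robust form on adjusted reads after adding a pseudocount of 1 and taking log2. The 15759 genes with a mean not under 1 were tested, their p-values were adjusted together by the Benjamini-Hochberg method, and the threshold was 0.05. Folds on this scale understate changes of low genes. Alternatives used edgeR 4.0.16, DESeq2 1.42.0, limma-voom, other pseudocounts, filters and scalings, and the libraries left out in turn. The script was tested on simulated data. Named were the 10 genes, up to 4 called genes of smallest p per list (or 2 of highest mean), and the 8 genes of mean at least 20 most correlated with the genes' mean profile. Lyz2, Cd6, Cd27 and Tcf4 were named in addition, after their values were seen. The 10 genes and the 15 context lists were chosen with earlier results of these data known. RPKM used lengths from GENCODE M21 and promoters came from RefSeq. No protein sequence was used here.

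Groups and replicate numbers came from the sample labels. Same-numbered libraries deviated together from their group means (Pearson r of 0.414, 0.128 and 0.140 across genes). So did control 2 with severe asthma 3 (0.179) and control 3 with severe asthma 2 (0.200), so the values single out no pairing of replicates 2 and 3. The main test used no pairing, and a replicate block was among the alternatives. Nothing says that the libraries of a group came from separate mice, so p-values measure the spread between these libraries, which may be technical.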

Additional observations from a re-analysis of the deposited data

How the results depend on the processing

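Over 21 alternatives, 2 of them (the Cd247 transcript free of Pou2f1 and scaling to the B cell list) chosen after seeing the data, the count of called genes among the 10 was 3 except as follows. Leaving out 1 library at a time gave 1 to 5 genes called, with 1 to 2 risen and 0 to 4 fallen. Fallen genes numbered 0 without control replicate 3 and without severe asthma replicate 2 or 3, and 4 without control replicate 1. With limma-voom, with reads summed over transcripts, and with the Cd247 transcript free of Pou2f1, 1 gene fell. Lck alone passed in all 21. The Cd8a log2 fold change, 0.04, turned negative with total reads alone (-0.11), edgeR TMM (-0.12), edgeR TMM without a filter (-0.11), edgeR RLE (-0.14), DESeq2 (-0.14), limma-voom (-0.046) and the B cell list (-0.16), and ran from -0.22 to 0.42 with 1 library left out. Ifng ran from -0.55 to 0.40 with 1 library left out, positive without severe asthma replicate 3. The context lists held 53 called genes, 23 to 51 with 1 library left out and 29 when scaled to the B cell list. Of the 62 genes named by rule, 39 changed their call and 2 their sign in at least 1 alternative.

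With the replicate block, 3 of the 10 genes were called, as without it, and 56 genes of the context lists. The block changed no call among the 10 genes. Over all genes, calls ranged from 943 to 3528 risen and from 728 to 3112 fallen, the fewest fallen without severe asthma replicate 2.

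Themis rests on 4 to 13 reads per severe asthma library, and Cd3e on 16 to 21. The causes of the lost calls were not tested.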

Other observations

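Non-coding transcripts of 2 of the 10 genes were listed in the non-coding table and entered no comparison. The non-coding Themis transcript read 1.05, 1.97 and 3.73 adjusted reads in the control libraries and was listed at 0 in all 3 severe asthma libraries. The non-coding Cd247 transcript read 354, 318 and 335 in control and 243, 239 and 260 in severe asthma, and it shares 2380 exon bases with Pou2f1.

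Over the 6 libraries, Lck and Cd247 had a Pearson correlation of log2 values of -0.98, and Cd3e and Icos of 0.94. The Cd247 transcript used here was NM_001113392.2, which shares 2136 exon bases with Pou2f1. The correlations describe 6 points that include the difference between the groups.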
